A study of Rattus norvegicus with 6 samples.

Results

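The genes described here are the Wnt pathway genes of a rat RNA-seq count table: ligands, R-spondins, receptors, secreted antagonists, β-catenin with its destruction complex, and the TCF/LEF transcription factors. They were taken by symbol. The rule takes every symbol that starts with Wnt, Fzd, Sfrp1 to Sfrp5 or Dkk1 to Dkk4, with Wif1, Lrp5, Lrp6, Axin2, Lef1, Tcf7l1, Tcf7l2, Ctnnb1, Apc, Rnf43, Lgr4, Lgr5, Rspo1, Rspo2 and Rspo3. It found 50 of the 16876 gene symbols. Axin1, Tcf7, Znrf3 and Lgr6, which the rule also names, are not among those symbols, so they were not analysed here. The 6 libraries were made from polyadenylated RNA of cells labelled as primary cultured rat microglia, shaken off mixed cultures. For 24 h, 3 of them were kept with PSNPs, which are polystyrene nanoplastics, and 3 with IR-813, a dye that the deposited tables head "con". The comparison asks which transcripts differ between both exposures, in a study of memory and neuroinflammation. The labels give no strain, sex, age or dose, and no untreated library was analysed here, so higher or lower always means with PSNPs relative to IR-813. Nothing states that the replicates came from separate cultures, so p-values measure the spread between these libraries, which may be technical.

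Wnt proteins are secreted, lipid-modified ligands that bind Frizzled receptors. In the canonical branch an LRP5 or LRP6 co-receptor joins the complex, the destruction complex built on AXIN and APC is held back, and β-catenin accumulates and acts with TCF/LEF factors on target genes. SFRP, DKK and WIF1 proteins are secreted antagonists, while R-spondins act through LGR receptors to keep the ubiquitin ligases RNF43 and ZNRF3 from removing Frizzled from the membrane. Other ligands, WNT5A among them, mostly act through β-catenin-independent branches. In the brain, astrocytes, neurons, oligodendrocyte progenitors and microglia all use the pathway, and TCF7L2 is well known from differentiating oligodendrocytes.

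The libraries held 19166605 to 22553507 counts each, of which 31829 to 47674 fell on the Wnt genes. The microglia markers Aif1 and P2ry12 ranked between 3796 and 7712 and between 9184 and 10894 among all genes, whereas the astrocyte gene Gfap ranked between 7 and 18 and the myelin gene Mbp between 21 and 56. In each list of markers, the summed level is given as a range over libraries in CPM, counts scaled to library size after TMM, an adjustment for RNA composition. The 8 microglia markers summed to 786 to 1038 CPM with IR-813 and to 465 to 600.2 CPM with PSNPs, and 7 of them fell. The 12 oligodendrocyte-lineage markers summed to 7259 to 8419 CPM and to 4504 to 5215 CPM, with 11 lower and 1 higher. The 12 neuron markers summed to 386 to 399.7 CPM and to 165 to 198 CPM, and 7 of the 10 tested fell, while the glutamatergic markers Slc17a7 and Slc17a6 were near 0 throughout. The 10 astrocyte markers summed to 6546 to 8361 CPM and to 7799 to 8609 CPM, with 5 higher and 1 lower. The 8 fibroblast and meningeal markers, of which Col1a2 was at 0, summed to 72.1 to 126 CPM and to 73.6 to 83.2 CPM. Of the 4 tested, 2 were lower. The 8 endothelial and pericyte markers summed to 10.7 to 11.4 CPM and to 19.8 to 30.1 CPM. Most of the sum with PSNPs was Flt1, which went from 4.34 to 21.0 CPM in the mean. Of the 6 tested, Flt1 and Kcnj8 were higher and Pecam1 (2.59 to 1.27 CPM) was lower. The 8 ependymal and choroid plexus markers, with Otx2 at 0, summed to 63.8 to 75.7 CPM and to 83.3 to 101 CPM. Most of this sum was Foxj1 (64.0 to 90.2 CPM), which alone of the 5 tested was higher. A marker counted as higher or lower, or as having fallen, had an edgeR adjusted p under 0.05, as 41% of all tested genes did. Snap25 and Foxc1, both lower, had enough counts for the test through the IR-813 libraries alone. Kcnj8 had enough through the PSNPs libraries alone, so the group where each of these markers was higher carried it into the test. Cdh5 and Kdr, through the IR-813 libraries alone, and Aqp1, through the PSNPs libraries alone, were also tested and were neither higher nor lower. What part the shifts of the marker lists had in the Wnt results was not tested. In bulk RNA, fewer cells of a type and less RNA per cell cannot be told apart.

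Of the 50 Wnt genes, 34 had enough counts to be tested and 16 stayed under the count filter. With an adjusted p under 0.05 by edgeR's quasi-likelihood test, 8 were higher and 10 were lower with PSNPs. Over all 11679 tested genes 41% passed, 20.9% higher and 20.1% lower. The median log2 fold change was −0.12 over the 34 genes and −0.01 over all tested genes. Wnt4, Lgr5 and Rnf43 passed the filter through the IR-813 libraries alone and Sfrp5 through the PSNPs libraries alone. The group where each of these genes was higher thus carried it into the test. The groups did not overlap for 22 of the 34, 10 of them higher and 12 lower with PSNPs. Of all tested genes 61.4% did not overlap, 30% higher and 31.4% lower. When IR-813 replicate 1 was left out, 5 Wnt genes were lower, and when IR-813 replicate 2 was left out, 6 were. Over all tested genes the share that was lower went from 20.1% to 13.3% and 12.5% in the same fits. By role, 4 of the 7 tested ligands and the 1 tested R-spondin passed, and all were lower. Of the 8 tested Frizzled receptors 3 passed, all higher, while the median log2 fold change of the 8 was 0.04. The 7 tested antagonists went both ways, with 3 higher and 1 lower. These roles hold few genes, and whether any role differs from all tested genes was not tested.

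**Figure D1:**
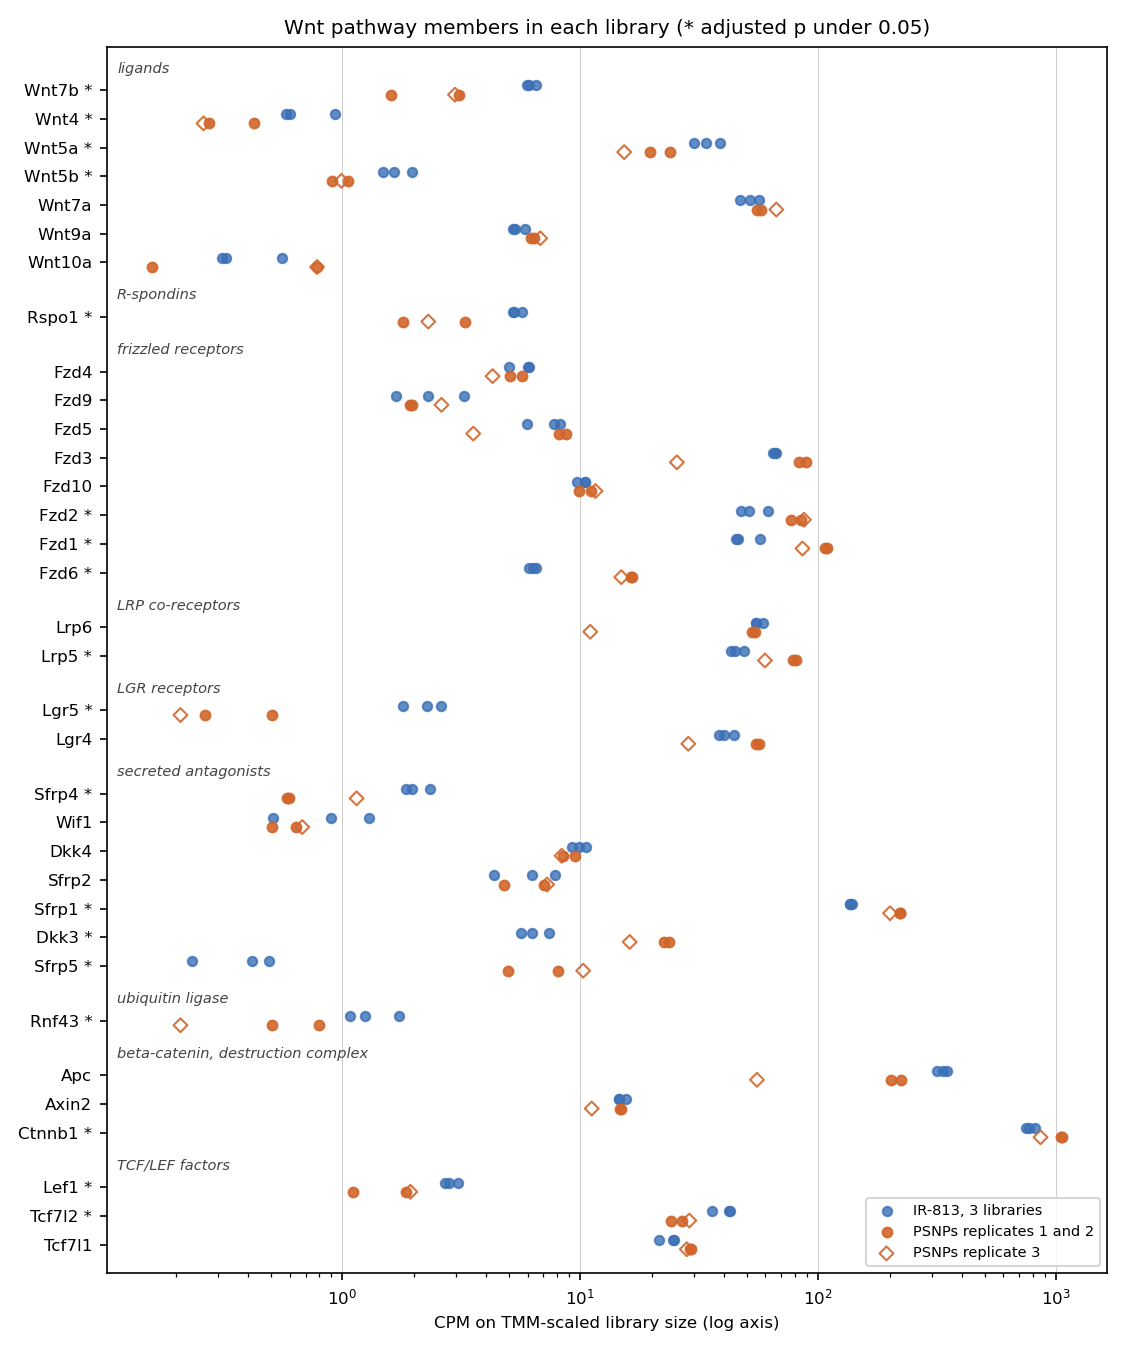
CPM of the 34 tested Wnt genes in each library on a log axis, grouped by role, with IR-813 in blue circles, PSNPs replicates 1 and 2 in filled orange circles and PSNPs replicate 3 as an open diamond; an asterisk marks an adjusted p under 0.05. Sfrp5 lies at 4.99 to 10.3 CPM in the PSNPs libraries and under 0.5 CPM in the IR-813 libraries, and the open diamond stands to the left of the other PSNPs libraries for Apc, Lrp6 and Fzd3.

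Among the 18 ligand genes, 7 were tested, of which 4 fell and 3 did not pass. Wnt5a, a ligand best known for β-catenin-independent signalling, stood at 38.7, 33.9 and 29.9 CPM with IR-813 and at 19.6, 23.8 and 15.3 CPM with PSNPs. Every PSNPs library lay below every IR-813 library. Its log2 fold change was −0.80 ± 0.18 (estimate ± SE, n = 3 libraries each; edgeR adjusted p = 0.0121). Wnt7b, a ligand with roles in brain vessel and dendrite development, stood at 5.95, 6.10 and 6.52 CPM with IR-813 and at 1.61, 3.08 and 2.97 CPM with PSNPs. PSNPs replicate 1 was the lowest and the groups did not overlap. Wnt7b fell by 1.28 ± 0.24 on the log2 scale (edgeR adjusted p = 0.00644). The low ligand Wnt5b went from 1.66, 1.96 and 1.48 CPM to 1.06, 0.902 and 0.991 CPM, a log2 fold change of −0.78 ± 0.20 (edgeR adjusted p = 0.0200). In the GRCr8 annotation Wnt5b overlaps Fbxl14, which had 699 to 914 counts per library, so reads of the pair may not be told apart. Wnt4, lower still, had 13, 20 and 13 counts with IR-813 and 6, 8 and 5 counts with PSNPs, and its log2 fold change was −1.13 ± 0.35 (edgeR adjusted p = 0.0374).

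Wnt7a, a close relative of Wnt7b that acts on the blood-brain barrier and on oligodendrocyte progenitors, did not follow it. It stood at 46.8, 51.7 and 56.5 CPM with IR-813 and at 57.3, 55.2 and 66.6 CPM with PSNPs, and the groups overlapped (log2 fold change 0.21, 95% interval −0.06 to 0.48, edgeR adjusted p = 0.184). Whether Wnt7a and Wnt7b differ in their response was not tested. Wnt9a was at 5.19 to 5.83 CPM and at 6.21 to 6.78 CPM and did not pass either (0.25, interval −0.05 to 0.54), although its groups did not overlap. Wnt10a had 7, 12 and 7 counts with IR-813 and 17, 3 and 15 counts with PSNPs, with the highest and the lowest value both in the PSNPs group. The calls of 3 ligands depended on single libraries. Wnt5a was at an edgeR adjusted p of 0.0527 without IR-813 replicate 1, and the 13 alternatives spanned 0.000307 to 0.0527. Wnt5b was at 0.0611, 0.0856 and 0.0636 without IR-813 replicate 1, IR-813 replicate 2 and PSNPs replicate 2, and the 13 alternatives spanned 0.0137 to 0.0856. It also lost its call by DESeq2 (0.0781) and with the replicate number as a block (0.0571). Wnt4 lost its call without any library except PSNPs replicate 2, with adjusted p from 0.0606 to 0.128, and by DESeq2 (0.124), and the 12 alternatives spanned 0.0265 to 0.128.

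The other 11 ligand genes were under the filter. Wnt3a, Wnt8a and Wnt8b had 0 counts in all 6 libraries. The limit that a count of 0 allows, 3 counts, comes to 0.133 to 0.157 CPM by library, for counting error only. Whether reads of these genes could be counted at all was not checked. Col1a2 also had 0 counts, in libraries with 324 to 1078 counts of Col1a1. Wnt1, Wnt10b and Wnt9b had at most 2 counts in any library. Wnt11 had 13, 23 and 9 counts with IR-813 and 1, 4 and 3 counts with PSNPs. Wnt16 had 4, 12 and 4 counts against 1, 1 and 1. When no filter was applied, Wnt11 was at −2.30 ± 0.60 (edgeR adjusted p = 0.0208) and Wnt16 at −2.47 ± 0.78 (edgeR adjusted p = 0.0430). Wnt2b, Wnt3 and Wnt6 had between 1 and 14 counts per library and did not pass in that fit.

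Of the R-spondins, which raise the amount of Frizzled at the surface, Rspo1 was tested. It stood at 5.28, 5.68 and 5.23 CPM with IR-813 and at 3.26, 1.80 and 2.30 CPM with PSNPs. No PSNPs library reached the lowest IR-813 library, and Rspo1 fell by 1.13 ± 0.22 on the log2 scale (edgeR adjusted p = 0.00729). Rspo2 and Rspo3 had at most 3 counts in any library.

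Of 9 Frizzled receptor genes, 3 rose, 5 did not pass, and Fzd8 had 0 counts everywhere. Whether reads of Fzd8 could be counted at all was not checked. Fzd6, a receptor with a known part in planar cell polarity, stood at 6.49, 6.10 and 6.34 CPM with IR-813 and at 16.3, 16.5 and 14.9 CPM with PSNPs. The values were close within each group and wide apart between the groups. Fzd6 rose 2.51-fold, or 1.33 ± 0.11 on the log2 scale (edgeR adjusted p = 0.000267). Fzd1 stood at 45.9, 45.0 and 56.9 CPM with IR-813 and at 107, 109 and 85.8 CPM with PSNPs. PSNPs replicate 3 was the lowest of its group and still above every IR-813 library, and Fzd1 rose by 1.03 ± 0.14 (edgeR adjusted p = 0.00162). Fzd2, the most abundant Frizzled per length in both groups, went from 47.4, 51.2 and 61.7 CPM to 84.9, 76.7 and 87.1 CPM, a log2 fold change of 0.63 ± 0.12 (edgeR adjusted p = 0.00631).

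Fzd3, a receptor known from axon growth, split the PSNPs group. It stood at 66.1, 64.6 and 66.5 CPM with IR-813 and at 83.3, 89.2 and 25.5 CPM with PSNPs, so that 2 PSNPs libraries lay above and replicate 3 below all IR-813 libraries. With all libraries the log2 fold change was 0.01 (interval −0.96 to 0.98). Without PSNPs replicate 3 it was 0.39 ± 0.05 with an edgeR adjusted p of 0.000579, and the 13 alternatives spanned 0.000579 to 0.999. Fzd5 was at 7.79, 8.24 and 5.97 CPM with IR-813 and at 8.69, 8.17 and 3.55 CPM with PSNPs, where replicate 3 was again the lowest. Its log2 fold change of −0.11 was 0.20 without that library, and it passed in neither fit. Fzd4 (−0.19, interval −0.57 to 0.20), Fzd9 (−0.15, −0.80 to 0.50) and Fzd10 (0.08, −0.20 to 0.37) did not pass, and their groups overlapped. A p that misses the threshold does not show similar levels.

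The co-receptor gene Lrp5 rose and its relative Lrp6 did not pass. Lrp5 stood at 43.1, 44.5 and 48.9 CPM with IR-813 and at 80.8, 78.2 and 59.7 CPM with PSNPs. All PSNPs libraries were above all IR-813 libraries, and the log2 fold change was 0.68 ± 0.13 (edgeR adjusted p = 0.00731). Lrp6 stood at 58.6, 54.8 and 54.8 CPM with IR-813 and at 52.8, 54.2 and 11.0 CPM with PSNPs. PSNPs replicates 1 and 2 lay just under the IR-813 libraries and replicate 3 far below them (log2 fold change −0.51, interval −1.71 to 0.69). Without replicate 3 the value was −0.07 ± 0.06. That Lrp5 and Lrp6 differ was not tested.

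Of the R-spondin receptors, Lgr5, also a stem-cell marker and target gene of the pathway, had the largest decrease of the Wnt genes. It had 40, 56 and 49 counts with IR-813 and 11, 5 and 4 counts with PSNPs, or 1.79, 2.61 and 2.27 CPM against 0.506, 0.265 and 0.209 CPM. The highest PSNPs library was under 1 CPM and the lowest IR-813 library above it. Lgr5 fell by 2.71 ± 0.33 on the log2 scale (edgeR adjusted p = 0.00115). Lgr4, which also binds R-spondins, stood at 40.4, 38.1 and 44.1 CPM with IR-813 and at 54.8, 56.3 and 28.4 CPM with PSNPs. As for Fzd3, replicates 1 and 2 were above and replicate 3 below every IR-813 library. The log2 fold change of Lgr4 was 0.19 (interval −0.40 to 0.78), and without PSNPs replicate 3 it was 0.44 ± 0.07 with an edgeR adjusted p of 0.00135, and the 13 alternatives spanned 0.00135 to 0.899.

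**Figure D2:**
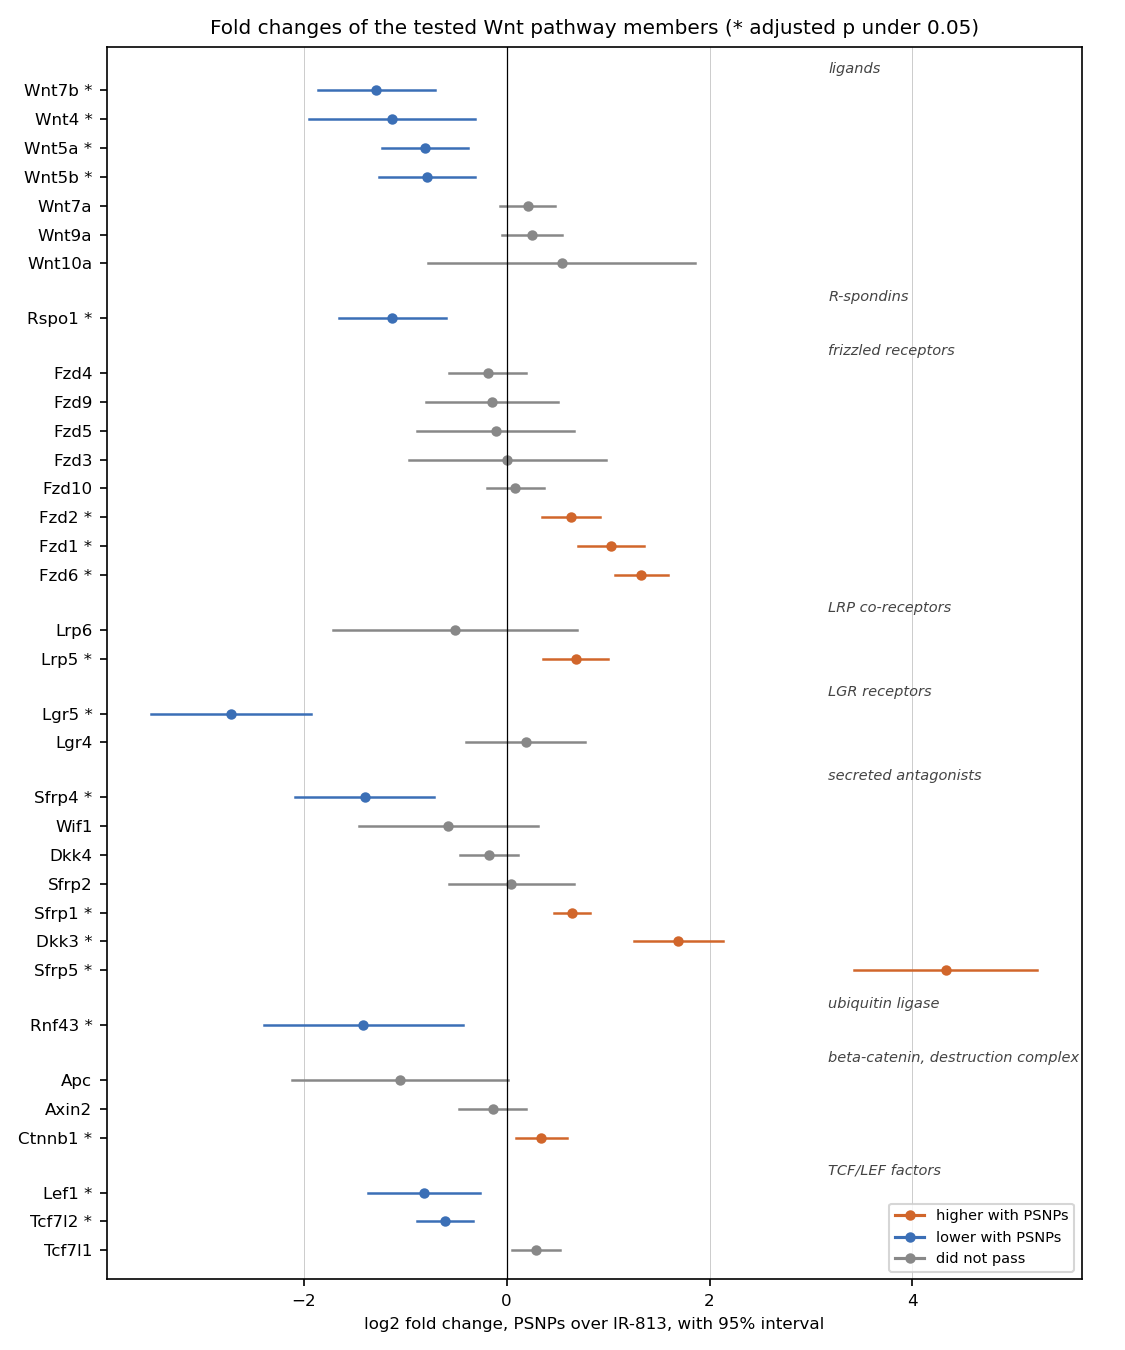
Log2 fold change of each tested Wnt gene, PSNPs over IR-813, with its 95% interval, grouped by role; orange is higher, blue is lower and grey did not pass at an adjusted p under 0.05. Sfrp5 at 4.33 and Lgr5 at −2.71 mark the ends, and the intervals of Fzd3, Lrp6 and Apc are wide.

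Secreted antagonists included the largest increase and the most abundant of the secreted Wnt genes. Sfrp5, a Frizzled-like decoy, had 11, 5 and 9 counts with IR-813 and 175, 94 and 197 counts with PSNPs. In CPM these were 0.492, 0.233 and 0.416 against 8.04, 4.99 and 10.3, and all PSNPs libraries lay far above all IR-813 libraries. Sfrp5 rose by 4.33 ± 0.38 on the log2 scale (edgeR adjusted p = 0.000332). On the deposited log2 values, where a pseudocount of 1 shrinks the change of low genes, the difference was 2.06. Dkk3, a divergent member of the Dickkopf family that is not a typical LRP antagonist, stood at 5.64, 6.24 and 7.36 CPM with IR-813 and at 23.6, 22.5 and 16.1 CPM with PSNPs. The groups were far apart, and Dkk3 rose by 1.69 ± 0.19 (edgeR adjusted p = 0.000762). Sfrp1, which is made by glial and other cells and binds Wnt proteins, stood at 136, 139 and 136 CPM with IR-813 and at 220.4, 220.7 and 200.2 CPM with PSNPs. The libraries lay close together within each group and did not overlap, and Sfrp1 rose 1.56-fold, or 0.64 ± 0.07 on the log2 scale (edgeR adjusted p = 0.000906).

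Sfrp4 went the other way within the same family. It stood at 2.33, 1.96 and 1.85 CPM with IR-813 and at 0.598, 0.584 and 1.15 CPM with PSNPs. PSNPs replicate 3 was the closest to the IR-813 libraries without reaching them, and Sfrp4 fell by 1.40 ± 0.29 (edgeR adjusted p = 0.00897). Nme8, which overlaps Sfrp4 in the GRCr8 annotation, had 0 counts in every library. Sfrp2 was at 4.34 to 7.86 CPM with IR-813 and at 4.78 to 7.25 CPM with PSNPs (log2 fold change 0.05, interval −0.57 to 0.66), and its sign turned under 4 alternatives. Dkk4 (−0.17, interval −0.46 to 0.11) and Wif1, an inhibitor that binds Wnt proteins directly (−0.57, −1.46 to 0.31), did not pass, and their groups overlapped. Dkk2 was under the filter with 4, 3 and 2 counts against 21, 11 and 9 counts. Without a filter its log2 fold change was 2.27 ± 0.47 (edgeR adjusted p = 0.00840). Dkk1, a known target gene and LRP antagonist, had 1 count in a single library and 0 in the other libraries.

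Rnf43, the ubiquitin ligase that removes Frizzled from the membrane, had 24, 37 and 27 counts with IR-813 and 11, 15 and 4 counts with PSNPs. The groups did not overlap, with PSNPs replicate 3 the lowest. Rnf43 fell by 1.41 ± 0.42 on the log2 scale (edgeR adjusted p = 0.0323). The call was lost without any IR-813 library and without PSNPs replicate 1, at adjusted p from 0.0590 to 0.113, and the 12 alternatives spanned 0.0190 to 0.113.

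Ctnnb1, which encodes β-catenin, stood at 749.7, 769 and 812 CPM with IR-813 and at 1053, 1045 and 859 CPM with PSNPs. All PSNPs libraries were higher, replicate 3 by the least, and the rise was 0.34 ± 0.11 on the log2 scale (edgeR adjusted p = 0.0382). The call was lost without each of the other 5 libraries (adjusted p from 0.0727 to 0.136) and held without PSNPs replicate 3, at 0.43 ± 0.05. It was also lost with library size as the only scaling (0.0856) and with the replicate number as a block (0.0862), and the 13 alternatives spanned 0.000324 to 0.136. Apc, a scaffold of the complex that marks β-catenin for destruction, stood at 347, 333 and 314 CPM with IR-813 and at 201, 223 and 55.3 CPM with PSNPs. Each PSNPs library was below each IR-813 library, but the wide spread in the PSNPs group left the edgeR adjusted p at 0.103 (log2 fold change −1.05, interval −2.12 to 0.02). Without PSNPs replicate 3 the value was −0.65 ± 0.07 with an adjusted p of 0.000171, and the 13 alternatives spanned 0.000171 to 0.212, and DESeq2 called Apc with all libraries (adjusted p = 0.0213).

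Axin2, the scaffold that is also the most widely used readout of canonical signalling, stood at 14.6, 15.6 and 14.5 CPM with IR-813 and at 14.6, 14.9 and 11.2 CPM with PSNPs. The groups overlapped, and the log2 fold change was −0.14 (interval −0.47 to 0.20, edgeR adjusted p = 0.464). Without PSNPs replicate 3 it was −0.02 ± 0.08. Among the TCF/LEF genes, Tcf7l2 stood at 35.7, 42.3 and 42.7 CPM with IR-813 and at 24.0, 26.6 and 28.7 CPM with PSNPs, with no overlap. Tcf7l2 fell by 0.60 ± 0.12 (edgeR adjusted p = 0.00681), in libraries where 11 of 12 oligodendrocyte-lineage markers also fell, whose part in this was not tested. Lef1, both a factor and a target of the pathway, went from 2.82, 2.70 and 3.05 CPM to 1.10, 1.86 and 1.93 CPM. That is a fall of 0.82 ± 0.23 (edgeR adjusted p = 0.0295), and the call held without PSNPs replicate 3 but was lost without each of the other 5 libraries (adjusted p from 0.0502 to 0.0889, where the 13 alternatives spanned 0.0112 to 0.0889). Tcf7l1, which often acts as a repressor, was at 21.3, 24.6 and 24.8 CPM against 29.2, 29.0 and 28.0 CPM. Its groups did not overlap, but at 0.29 ± 0.10 it did not pass (edgeR adjusted p = 0.0566). Without PSNPs replicate 3 it was 0.30 ± 0.08 with an adjusted p of 0.0159, and the 13 alternatives spanned 0.0159 to 0.199.

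Promoter sequence is shown for the genes on which the picture above turns: Axin2 as the standard readout, Sfrp5 as the largest increase, Fzd1 as a receptor that rose and Wnt5a as a ligand that fell. Each is the 250 bases upstream of the annotated gene start, 5′ to 3′ on the gene's strand, from RefSeq on GRCr8, a later build than the mRatBN7.2 of the counts. Capitals mark a match, on either strand, to a word of the common TCF/LEF motif. The words searched were CTTTGAA as well as CTTTGAT, together with CTTTGTA as well as CTTTGTT, which differ in their last letters only and cannot overlap on a strand.
Axin2, chr10:94398535-94398784, plus strand: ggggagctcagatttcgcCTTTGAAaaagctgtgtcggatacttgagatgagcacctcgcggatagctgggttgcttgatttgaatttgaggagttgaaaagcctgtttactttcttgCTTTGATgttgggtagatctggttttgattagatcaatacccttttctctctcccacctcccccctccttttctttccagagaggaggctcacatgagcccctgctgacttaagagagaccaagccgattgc
Sfrp5, chr1:250960513-250960762, minus strand: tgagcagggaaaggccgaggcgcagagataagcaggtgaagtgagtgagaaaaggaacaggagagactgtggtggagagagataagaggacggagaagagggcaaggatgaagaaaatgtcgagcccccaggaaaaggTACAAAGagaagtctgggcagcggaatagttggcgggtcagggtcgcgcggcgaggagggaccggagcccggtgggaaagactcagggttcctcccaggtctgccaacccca
Fzd1, chr4:30264824-30265073, plus strand: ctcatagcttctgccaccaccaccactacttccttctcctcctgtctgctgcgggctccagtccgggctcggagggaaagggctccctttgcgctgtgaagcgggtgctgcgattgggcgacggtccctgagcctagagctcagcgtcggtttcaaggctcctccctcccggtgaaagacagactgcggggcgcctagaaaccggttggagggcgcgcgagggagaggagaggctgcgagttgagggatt
Wnt5a, chr16:3703415-3703664, plus strand: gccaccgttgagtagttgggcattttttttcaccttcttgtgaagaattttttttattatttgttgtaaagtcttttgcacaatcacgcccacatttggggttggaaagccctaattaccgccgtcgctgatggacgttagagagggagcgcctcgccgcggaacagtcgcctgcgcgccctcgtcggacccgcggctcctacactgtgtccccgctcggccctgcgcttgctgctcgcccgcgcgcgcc

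Axin2 had a pair of matches on its own strand, 232 to 226 and 132 to 126 bases before the start. Sfrp5 had 1 match, with the word on the opposite strand, 112 to 106 bases before the start. Of all 33469 windows of this length, 14.9% held at least 1 match and 1.73% at least 2. The table gave a promoter for 35 of the 50 Wnt genes, and 4 of them held a match: Axin2, Sfrp5, Dkk1 and Wnt8a. None of the 6 genes that fell and had an entry, and 1 of the 3 that rose and had one, was among them. The gene with the most matches next to its start among those tested, Axin2, was a gene whose level did not pass the test, and a match in these letters is a description, not a bound site.

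Levels can be set side by side between genes only per length, for which the deposited log2 values were used, unlogged and less 1. Within a gene these values followed the counts, and the length they imply was 94.6% to 101% of the annotated span for Fzd1, Fzd2, Fzd9 and Fzd10. For Fzd4 it was 78.9%, for Fzd5 23%, for Fzd6 13.3% and for Fzd3 4.02% of the span, which takes in any introns, so the length of these genes was not checked this way. On this scale Ctnnb1 was the most abundant Wnt gene, at 342 ± 13.6 with IR-813 and 436 ± 40.4 with PSNPs (SD, n = 3). With IR-813, Apc (37.6 ± 1.93) and Sfrp1 (35.2 ± 0.480) came next and their libraries overlapped. With PSNPs, Sfrp1 (55.3 ± 2.04) and Fzd2 (46.3 ± 3.74) came next and did not overlap. Among the ligands Wnt7a led in both groups, at 16.6 ± 1.54 and 19.3 ± 2.35. With IR-813 it was followed by Wnt7b (7.0 ± 0.333) and Wnt5a (6.23 ± 0.808), which overlapped. With PSNPs it was followed by Wnt5a (3.58 ± 0.728) and Wnt7b (2.92 ± 0.964), which overlapped too. The implied lengths, 888 bases for Wnt7b and 5500 bases for Wnt5a, were not checked, and the place of Wnt7b rests on them. In CPM the means of Wnt5a and Wnt7b were 34.1 and 6.19 with IR-813 and 19.6 and 2.55 with PSNPs. Sfrp5, at 0.201 ± 0.0704 with IR-813, was among the lowest of the tested Wnt genes, and at 4.15 ± 1.49 with PSNPs it was close to Dkk3 (4.11 ± 0.734). Among the receptors, Fzd2 (29.7 ± 4.06) and Fzd3 (24.4 ± 0.349) led with IR-813 without overlap. With PSNPs, Fzd2 still led, and Fzd3 (24.5 ± 12.8) and Fzd1 (22.9 ± 2.53) followed with overlap.

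**Figure D3:**
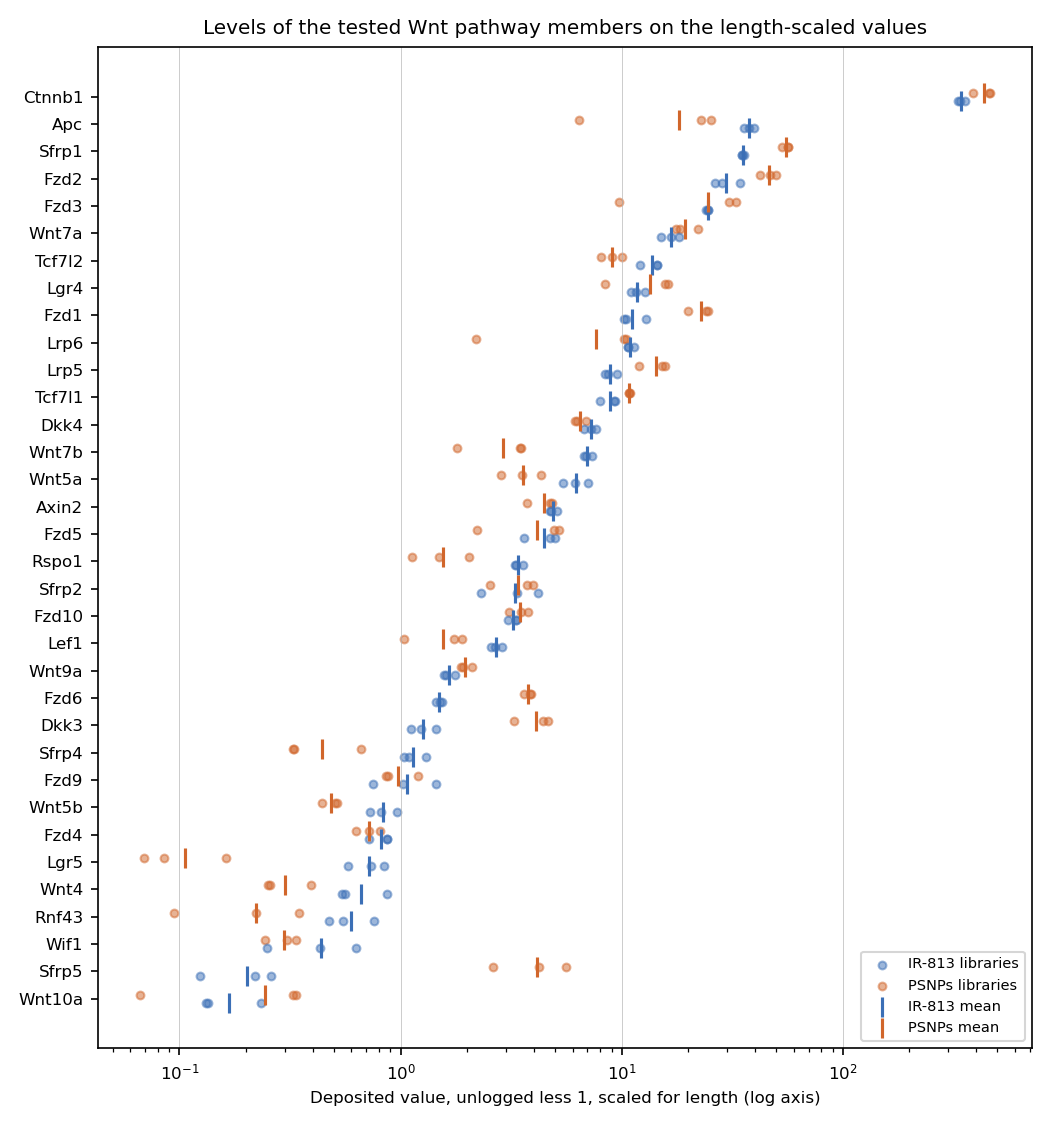
Level of each tested Wnt gene on the deposited values scaled for length (unlogged, less 1, log axis), ordered by the IR-813 mean; points are libraries and bars are group means. Ctnnb1 stands alone at the top, and Sfrp5 moves from 0.201 with IR-813 to 4.15 with PSNPs.

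PSNPs replicate 3 stood apart for several Wnt genes. Relative to the mean of PSNPs replicates 1 and 2, its CPM was 20.6% for Lrp6, 26.0% for Apc and 29.5% for Fzd3. It was 32.1% for Rnf43, 42.1% for Fzd5 and 51.2% for Lgr4, and 194% for Sfrp4, 166% for Wnt10a and 158% for Sfrp5. Of these, Rnf43, Wnt10a and Sfrp4 had only 4, 15 and 22 counts in that library. Across the 31 tested Wnt genes with a length value, Spearman's correlation of this ratio with length was −0.51, and across 11209 tested genes it was −0.57. These are descriptions across genes, which share the same 3 libraries. Among all genes, the median of the ratio was 119% for lengths under 2000 bases and 59.6% for lengths of 6000 bases or more. The same ratio taken for IR-813 replicate 3 had correlations of 0.11 and −0.13. The part of RNA quality in this was not tested.

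**Figure D4:**
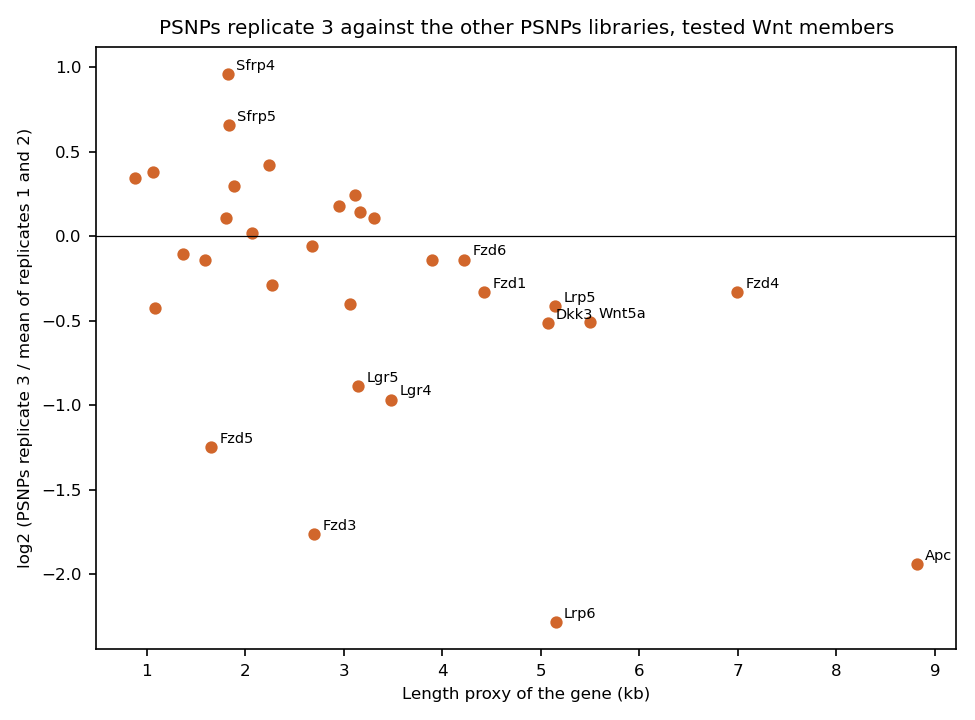
Log2 ratio of PSNPs replicate 3 to the mean of PSNPs replicates 1 and 2 (y) against the length of each tested Wnt gene in kilobases, as implied by the deposited values (x). Lrp6, Apc and Fzd3 lie lowest, and the 8 genes longer than 4 kb are all below 0.

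Without PSNPs replicate 3, 21 of the 34 Wnt genes passed, where 60.3% of all tested genes did. Of the 18 that had passed with all libraries, 17 kept their call and Wnt4 lost it (edgeR adjusted p = 0.0669, and the 12 alternatives spanned 0.0265 to 0.128). Apc, Fzd3, Lgr4 and Tcf7l1 passed in addition. The direction of every gene that passed with all libraries held in each of the fits, and Fzd5 and Sfrp2, which had not passed, changed sign.

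**Figure D5:**
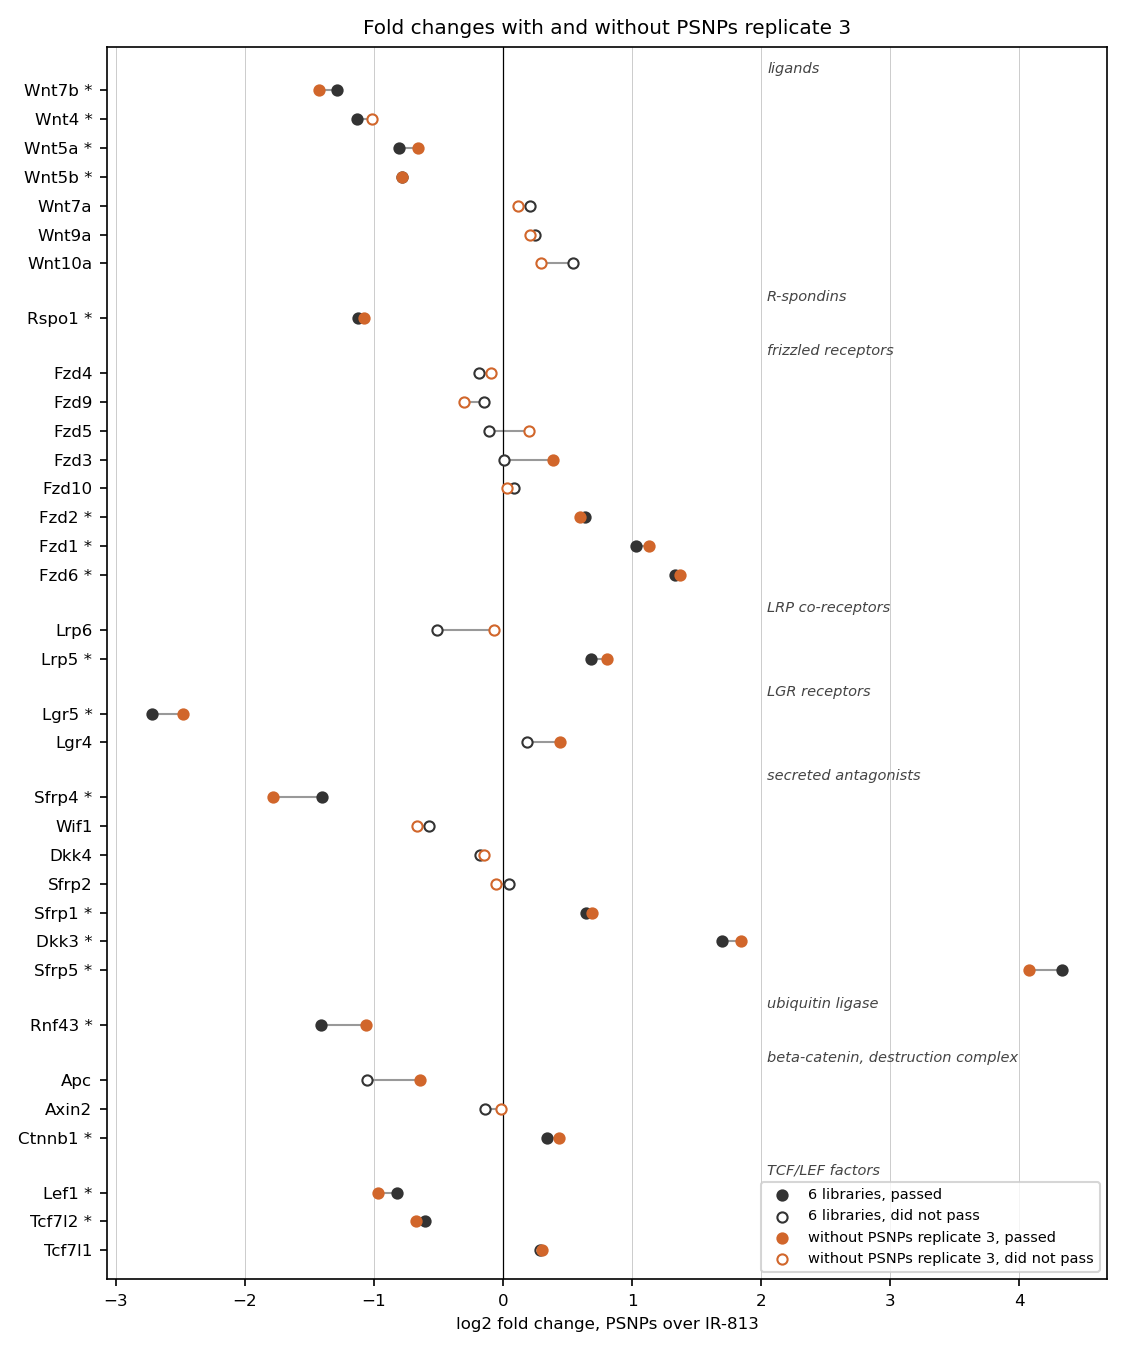
Log2 fold change of each tested Wnt gene with all 6 libraries (black) and without PSNPs replicate 3 (orange); filled symbols passed at an adjusted p under 0.05 in that fit, open symbols did not, and an asterisk marks genes that passed with all libraries. Apc moves from −1.05 to −0.65 and Fzd3 from 0.01 to 0.39, and both pass only without that library.

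Of 103 other genes of the pathway, 91 were tested, and 15 rose, 19 fell and 57 did not pass, a share of 37.4% against 41% of all tested genes. Their median log2 fold change was −0.15. Without PSNPs replicate 3, 24 were higher and 30 lower, a share of 59.3%, where 60.3% of all tested genes passed. Sostdc1, Sost and Wisp1 passed the filter through the IR-813 libraries alone and Notum through the PSNPs libraries alone. Here too the group where each was higher carried it into the test. Tbx3 also passed the filter through the IR-813 libraries alone and was not called (log2 fold change 0.15). Among extracellular and membrane modulators 2 rose and 3 fell of 11 (median log2 fold change −0.25). Notum, an enzyme that removes the lipid from Wnt proteins and a feedback target, rose from 0.168 ± 0.0246 to 1.41 ± 0.409 CPM (SD, n = 3), and the Norrin co-receptor gene Tspan12 rose by 0.83 ± 0.09 on the log2 scale. The LRP antagonists Sostdc1 and Sost fell from 1.72 ± 0.285 to 0.152 ± 0.0552 CPM and from 1.49 ± 0.202 to 0.211 ± 0.158 CPM. The sulfatase gene Sulf2, whose product edits heparan sulfate, fell by 0.55 ± 0.09.

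Genes of Wnt secretion mostly did not pass, with 1 higher and 0 lower of 6 (median 0.09). Tmed2, a cargo protein gene of the early secretory route, rose by 0.38 ± 0.07, while the Wnt acyltransferase gene Porcn (0.28, edgeR adjusted p = 0.107) and the Wnt carrier gene Wls (0.23, 0.0665) did not pass. Among 19 cytoplasmic transducers 0 rose and 5 fell (median −0.27). The feedback inhibitor gene Nkd2 fell by 0.93 ± 0.14, the casein kinase gene Csnk1e by 0.43 ± 0.08 and Dvl1, which relays the signal from Frizzled, by 0.32 ± 0.08. The call for Dvl1 was lost without any library except PSNPs replicate 3, at edgeR adjusted p from 0.0568 to 0.0799. Nuclear cofactors had 5 higher and 2 lower of 21 (median −0.09). Sox7, a factor that can restrain β-catenin, rose from 20.3 ± 1.51 to 106 ± 14.8 CPM, the corepressor gene Tle1 from 27.4 ± 0.669 to 57.4 ± 1.53 CPM and the β-catenin antagonist gene Cby1 by 0.77 ± 0.10. Tle3, a relative of Tle1, fell by 0.43 ± 0.07 and the coactivator gene Crebbp by 0.57 ± 0.12.

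Of 14 genes of planar polarity and other β-catenin-independent receptors, 1 rose and 3 fell (median −0.02). Prickle1, a core polarity gene, fell from 35.7 ± 3.42 to 10.9 ± 2.06 CPM, the cadherin gene Celsr3 by 0.94 ± 0.19 and the formin gene Daam1 by 0.51 ± 0.15, while the ciliary gene Fuz rose by 0.97 ± 0.20. Daam1 lost its call without any IR-813 library and without PSNPs replicate 1 (edgeR adjusted p from 0.0558 to 0.113). The target genes went both ways, with 7 higher and 7 lower of 22 (median 0.02). Besides Notum, the drug-efflux gene Abcb1b (1.82 ± 0.22) and Id2 (0.64 ± 0.10), an inhibitor of basic helix-loop-helix factors, had the smallest p among those that rose. Those with the smallest p among the decreases were Abcb1a (−5.76 ± 0.37), the growth factor gene Bmp4 (−2.26 ± 0.22) and the AP-1 gene Fosl1 (−1.16 ± 0.19). Abcb1a and Abcb1b are close copies, so the split of reads between them is uncertain. The other called targets were Cldn1 (1.01), Bambi (0.60), Ccnd1 (0.52) and Sox9 (0.42), which were higher, and Wisp1 (−1.74), Nkd1 (−0.52), Jun (−0.51) and Ppard (−0.25), which were lower. These 8, with Porcn and Wls, were named after their values were seen.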

How the data were processed

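The authors deposited a table of raw counts by gene symbol and, for each library, log2 values; per the labels their scaling is unknown. Per the submitters' processing notes, bcl2fastq was used and the build was mRatBN7.2. For aligner, counter, annotation and strand, the sources used here give nothing. Groups came from the sample titles. Counts were filtered with filterByExpr (at least 10 counts in a library of median size, in 3 libraries), TMM-scaled and tested in edgeR 4.0.16 (R 4.3.3) by the quasi-likelihood test with Benjamini-Hochberg adjustment over 11679 genes, at a threshold of 0.05. The SE is the log2 fold change over the square root of F, and intervals are 95%. The deposited log2 values, unlogged and less a pseudocount of 1, were proportional to the counts within 0.05 log2 units for 99.5% of values of at least 0.5, once a gene and a library factor were allowed. The gene factor gave the length. Alternatives used DESeq2 1.42.0, limma 3.58.1, other scalings and filters, and left out each library. On simulated data with the same relative spread for all genes, the fit recovered 32.8% of 1.5-fold, 92.5% of 2-fold and 100% of 4-fold changes. Of its 157 calls 7 were false. The simulation had far fewer changed genes and no outlying library, so recovery in the real data may differ. All called Wnt genes and the other tested Wnt genes are named, with the 3 smallest p in each direction of every list of other pathway genes. The Wnt genes, the lists of other pathway genes and the marker lists were chosen with earlier results of these data known. No molecular identifiers are described, so limits from counts cover counting error only.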

Additional observations from a re-analysis of the deposited data

How the results depend on the processing

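Of the 18 Wnt genes that passed, all kept their direction in the 13 alternative fits that gave them a value. All 18 passed with RLE size factors, with no filter and by limma on the deposited log2 values. With library size only 17 passed (not Ctnnb1), by DESeq2 16 (not Wnt4 or Wnt5b) and, of the 16 left by a minimum mean of 1 CPM, 16. Whether the replicate numbers pair the samples cannot be told from these libraries. Deviations of same-numbered libraries correlated at −0.01, 0.01 and 0.12, and those of differently numbered libraries at −0.17 to 0.18. With the replicate number as a block, 7 Wnt genes were higher and 9 lower, in place of 8 and 10, with Ctnnb1 and Wnt5b no longer passing, and 2035 genes were higher and 2124 lower overall. Leaving out 1 library at a time gave 1339 to 3540 genes higher and 1465 to 3499 lower, 5 to 10 Wnt genes lower, and 12 to 24 other pathway genes higher and 13 to 30 lower. Library size as the only scaling called 1943 genes higher and 2852 lower, a share of 40.5% higher, compared with 50.9%. Signs turned only for Wnt genes that had not passed. Fzd3 was at −0.069 with library size only, −0.00036 with a mean of at least 1 CPM, −0.17 by limma on the deposited values and −0.17 with the block, and between −0.26 and 0.39 without 1 library. Sfrp2 was at −0.031 with library size only and between −0.15 and 0.26 without 1 library, Fzd5 between −0.32 and 0.20, and Fzd9 between −0.35 and 0.13. The cause of these changes was not tested. On the deposited log2 values the changes of Lgr5 (−0.64), Rnf43 (−0.39), Sfrp4 (−0.58), Sfrp5 (2.06) and Wnt4 (−0.35) were smaller by over 1.5-fold. Wnt5b (−0.30) was also smaller, by less than that. Low counts in either group limit Wnt4, Wnt10a, Wnt11, Wnt16, Dkk2, Rnf43, Wif1, Lgr5, Sfrp4 and Sfrp5. The number of libraries, 3 per group, limits all tests.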
